A study of Mus musculus with 4 samples.

Results

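Zfp genes are the mouse genes whose symbol is Zfp followed by a number, and 367 of the 21887 RefSeq protein-coding genes on chromosomes 1 to 19, X and Y of the mm10 build fit that pattern. Each was taken with its gene body and 2000 bp beyond both ends, and the share of that window lying under peaks of H3K27me3, the histone mark laid down by Polycomb complexes, was measured in each of 4 libraries. A member was called clustered when the body of another member lay within 100 kb, which held for 212 genes, and isolated otherwise, which held for 155. The rules for members and classes use no measured value, though members were chosen with earlier results of these data known.

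The libraries were made by CUT&Tag, in which an antibody directs a transposase to cut and tag DNA around a chromatin mark. They came from sorted germinal center B cells of C57BL/6 spleens, from 2 mice labelled Kdm6b B KO (KO) and 2 wild type mice (WT), 1 mouse per library. All received sheep red blood cells, with a boost on day 5, and spleens were taken on day 12; 1000 to 5000 cells went into a library with 1 µg of antibody. Kdm6b encodes an enzyme that removes methyl groups from H3K27, and the question is whether its loss in B cells alters the mark. The series title calls the cells pre-plasma, while the sort markers, Cre line, deleted exons, age and sex are not stated in the labels. Replicate numbers only name the mice and pair nothing.

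Most proteins of this family carry arrays of C2H2 zinc fingers, each finger a small fold held by a zinc ion that reads a few bases of DNA. Many also carry a KRAB domain, which recruits the co-repressor Trim28 (KAP1) and through it the H3K9 methyltransferase Setdb1, and such proteins silence transposable elements and hold imprinted loci. Their genes arose by repeated tandem duplication and lie in clusters, whereas a smaller set without KRAB, including developmental regulators, mostly stands alone. The symbol does not separate these kinds: Zfp36, for example, encodes an RNA-binding protein that destabilises messenger RNA.

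The marked and unmarked ends of the family can be seen in their promoters. The 8 sequences below are RefSeq promoters of GRCm38.p6, the assembly that mm10 denotes, from 250 bases before to 50 bases after the gene start, 5′ to 3′ on the gene's own strand, with every CpG in capitals. The first 4 belong to the members with the highest covered share whose RefSeq promoter lies at the annotated gene end, the fifth to the member with the largest difference between genotypes under the same condition, and the last 3 to members without a peak in any library from the 3 clusters with most members.
Zfp503 (chr14:21989552-21989851, minus strand): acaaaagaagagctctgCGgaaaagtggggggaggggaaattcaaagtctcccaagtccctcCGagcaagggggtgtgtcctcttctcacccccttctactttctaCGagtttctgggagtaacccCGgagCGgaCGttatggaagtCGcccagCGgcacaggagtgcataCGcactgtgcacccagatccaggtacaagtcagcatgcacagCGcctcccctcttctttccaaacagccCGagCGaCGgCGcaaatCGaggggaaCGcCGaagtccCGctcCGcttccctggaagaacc
Zfp57 (chr17:37000913-37001212, plus strand): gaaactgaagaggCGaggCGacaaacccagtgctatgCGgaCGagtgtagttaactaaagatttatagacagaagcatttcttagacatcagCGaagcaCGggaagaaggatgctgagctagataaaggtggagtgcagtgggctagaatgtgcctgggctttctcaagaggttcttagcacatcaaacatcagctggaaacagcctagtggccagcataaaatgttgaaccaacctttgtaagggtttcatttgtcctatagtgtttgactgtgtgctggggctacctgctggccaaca
Zfp358 (chr8:3492888-3493187, plus strand): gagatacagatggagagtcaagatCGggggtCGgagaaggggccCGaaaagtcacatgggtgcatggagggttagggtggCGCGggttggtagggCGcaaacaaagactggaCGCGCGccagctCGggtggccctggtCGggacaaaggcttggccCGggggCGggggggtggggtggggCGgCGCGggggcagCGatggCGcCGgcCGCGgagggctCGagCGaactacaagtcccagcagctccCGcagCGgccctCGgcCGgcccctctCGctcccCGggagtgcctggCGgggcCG
Zfp872 (chr9:22187916-22188215, plus strand): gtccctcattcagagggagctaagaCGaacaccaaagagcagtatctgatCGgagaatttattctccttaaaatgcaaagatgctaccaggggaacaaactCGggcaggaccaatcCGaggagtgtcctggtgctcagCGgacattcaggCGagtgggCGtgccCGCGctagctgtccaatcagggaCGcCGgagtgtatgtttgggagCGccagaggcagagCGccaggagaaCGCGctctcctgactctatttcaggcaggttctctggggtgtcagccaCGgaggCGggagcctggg
Zfp579 (chr7:4996052-4996351, minus strand): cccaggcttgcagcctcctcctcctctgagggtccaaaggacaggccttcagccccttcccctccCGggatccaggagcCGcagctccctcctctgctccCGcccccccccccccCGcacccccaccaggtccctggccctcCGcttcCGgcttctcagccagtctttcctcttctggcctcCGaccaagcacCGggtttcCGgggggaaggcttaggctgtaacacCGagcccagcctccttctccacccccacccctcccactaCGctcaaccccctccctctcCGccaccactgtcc
Zfp14 (chr7:30051347-30051646, minus strand): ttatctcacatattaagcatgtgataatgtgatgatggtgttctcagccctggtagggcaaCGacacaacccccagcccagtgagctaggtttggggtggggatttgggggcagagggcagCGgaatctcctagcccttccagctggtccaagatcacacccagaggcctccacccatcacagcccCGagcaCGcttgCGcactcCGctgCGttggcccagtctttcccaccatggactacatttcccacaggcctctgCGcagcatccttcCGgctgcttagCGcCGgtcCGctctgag
Zfp712 (chr13:67061121-67061420, minus strand): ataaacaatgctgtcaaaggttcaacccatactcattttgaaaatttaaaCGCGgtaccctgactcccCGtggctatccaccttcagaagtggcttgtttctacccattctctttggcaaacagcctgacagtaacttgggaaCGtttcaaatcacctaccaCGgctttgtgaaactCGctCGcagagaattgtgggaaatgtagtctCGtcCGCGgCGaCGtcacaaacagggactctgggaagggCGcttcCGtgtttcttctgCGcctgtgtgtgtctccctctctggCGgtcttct
Zfp943 (chr17:21962309-21962608, plus strand): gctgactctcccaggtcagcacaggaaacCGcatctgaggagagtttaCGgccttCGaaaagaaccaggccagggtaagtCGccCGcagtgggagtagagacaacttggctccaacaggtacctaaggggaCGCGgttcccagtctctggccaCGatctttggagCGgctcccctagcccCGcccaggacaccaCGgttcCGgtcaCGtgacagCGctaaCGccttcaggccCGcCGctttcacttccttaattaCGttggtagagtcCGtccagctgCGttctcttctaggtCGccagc
The first 4 promoters lay entirely under peaks in every library, except that of Zfp358, which was covered to 94.7% in WT replicate 2. They differ widely in CpG content, from 6 CpG in Zfp57 to 31 in Zfp358, 19 in Zfp503 and 17 in Zfp872. The promoter of Zfp579, with 12 CpG, was covered to 100% in both KO libraries, against 56.3% in WT replicate 1 and 0% in WT replicate 2. Those of Zfp14, Zfp712 and Zfp943 held 12, 16 and 21 CpG and were covered to 0% in every library, so promoters of like CpG content were found at both ends.

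The whole peak lists differed in breadth. They held 80639 to 90417 peaks. The KO lists spanned 144 and 236 Mb and the WT lists 213 and 101 Mb. Read depth was unknown. Kdm6b itself was covered to 42.6% and 65.0% in KO mice, against 49.7% and 38.7% in WT mice, which does not check the deletion. The 9 germinal center B cell markers examined, such as Pax5 and Bcl6, had mean covered shares of 1.34% and 7.49% in KO mice, against 0.154% and 0.417% in WT mice. The 7 T cell markers had 46.3% and 57.6% in KO mice, against 64.5% and 37.9% in WT mice, and the 6 myeloid markers 67.7% and 80.1% in KO mice, against 73.7% and 55.2% in WT mice. The 4 plasma cell markers had 25.6% and 41.6% in KO mice, against 36.2% and 17.99% in WT mice. The 3 NK cell markers had 31.9% and 32.7% in KO mice, against 32.6% and 31.2% in WT mice. All of this came from 1 gene, and the other 2 had no coverage in any library. The 4 erythroid markers had 55.9% and 60.4% in KO mice, against 56.4% and 38.0% in WT mice. In pooled cells, fewer cells with the mark and less mark per cell cannot be told apart.

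H3K27me3 covered little of the Zfp family. The mean covered share of the 367 windows was 6.64% and 10.9% in KO mice, against 8.94% and 4.72% in WT mice. The 21520 other protein-coding genes averaged 12.7% and 19.3% in KO mice, against 17.0% and 9.51% in WT mice. The difference was therefore negative in 4 of 4 libraries, with a mean of -6.85 ± 1.72 points (SD over libraries, n = 4). No test was made of it, since genes that share peaks are not replicates. Any coverage was found at 44.4% and 55.6% of members in KO mice, against 52.3% and 40.1% in WT mice. Other genes had it at 50.1% and 59.6% in KO mice, against 54.4% and 47.8% in WT mice, a higher share in each library. The share without a peak in all 4 mice was 31.9% of members and 33.1% of other genes. The medians differed by -0.10 points on average over the libraries, and in WT replicate 1 that of members was the higher, at 1.61% against 1.38%.

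Few members were broadly marked. With marking defined as coverage of 25% or more of the window, this held for 31 and 54 members in KO mice, against 39 and 19 in WT mice. That is 8.45% and 14.7% of members in KO and 10.6% and 5.18% in WT, beside 17.7% and 26.4% of other genes in KO and 23.7% and 13.2% in WT. In all, 312 members were marked in no library and 19 in all 4. Of the 36 between, 12 passed this limit in the pair of broadest lists alone (KO replicate 2, WT replicate 1), 12 in KO replicate 2 alone, 8 in every library but WT replicate 2, 3 in both KO libraries alone and 1 in KO replicate 1 alone. No member was marked in both WT libraries and neither KO library, as the 19 marked in WT replicate 2, the shortest list, were the 19 marked in all 4. For the 36 between, the shares over all genes were not computed, so these counts are no result about members. The mark was also concentrated, as the 20 members with most covered bases held 54.98% and 54.93% of the covered bases summed over all windows in KO and 58.3% and 58.6% in WT.

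**Figure D1:**
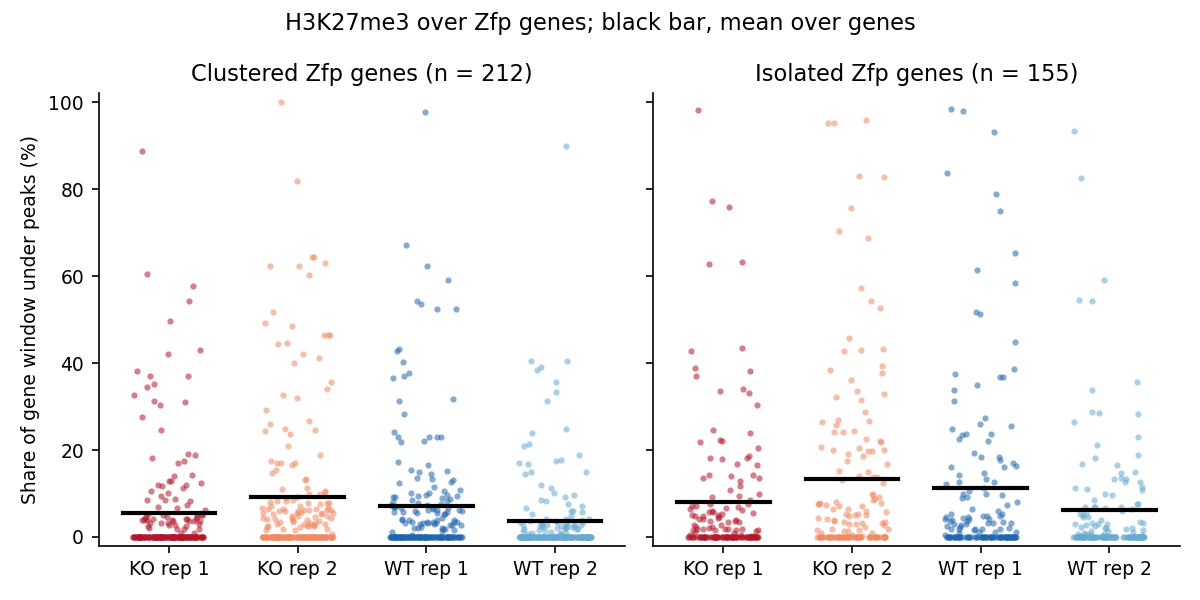
Share of the gene window under H3K27me3 peaks (y axis, %) for each of 212 clustered (left) and 155 isolated (right) Zfp genes, with 1 point per gene, 1 column per library and a black bar at the mean over genes. Most points lie at or near 0, and the mean of isolated genes is above that of clustered genes in each library.

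A small number of members were covered over most of their window. Zfp503 (chr14:21983959-21989601), a transcriptional repressor of the developing brain and eye, was covered to 98.1% and 95.3% in KO mice, against 98.4% and 93.3% in WT mice. Zfp853 (chr5:143285999-143293982) followed with 88.8% and 100% in KO mice, against 97.7% and 89.995% in WT mice. Most of both windows lay under peaks in every mouse, and the values of the genotypes overlapped at both genes.

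Zfp651 (chr9:121759319-121771742) had 77.3% and 95.9% in KO mice, against 97.9% and 82.6% in WT mice. Zfp57 (chr17:37001163-37010729), a KRAB protein that keeps DNA methylation at imprinted loci in the early embryo, had 76.0% and 95.2% in KO mice, against 93.2% and 59.1% in WT mice. At Zfp57 the 2 broadest lists, KO replicate 2 and WT replicate 1, were highest and the shortest, WT replicate 2, lowest. The longest peak over Zfp57 was 9487 and 11287 bp in KO mice, against 13650 and 3851 bp in WT mice, while over Zfp503 it was 8530 and 13137 bp in KO mice, against 15164 and 4209 bp in WT mice. In every library those peaks at Zfp503 ranked above at least 98.0% of the list by highest signal.

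The next 6 members by mean coverage were Zfp629, Zfp358, Zfp219, Zfp811, Zfp658 and Zfp316, with means over the 4 libraries of 68.0%, 66.1%, 64.1%, 62.0%, 54.1% and 53.9%. Zfp219 encodes a DNA-binding protein that acts with Sox9 in cartilage. At Zfp219 the values were 62.9% and 83.1% in KO mice, against 74.9% and 35.7% in WT mice, and WT replicate 2 stood lowest. At Zfp811 they were 60.6% and 81.8% in KO mice, against 67.3% and 38.3% in WT mice. KO and WT values overlapped at all 10 of the most covered members. Of the 10 members with the highest mean, 6 were isolated, and of the 19 marked in every library 11 were isolated and 8 clustered.

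**Figure D2:**
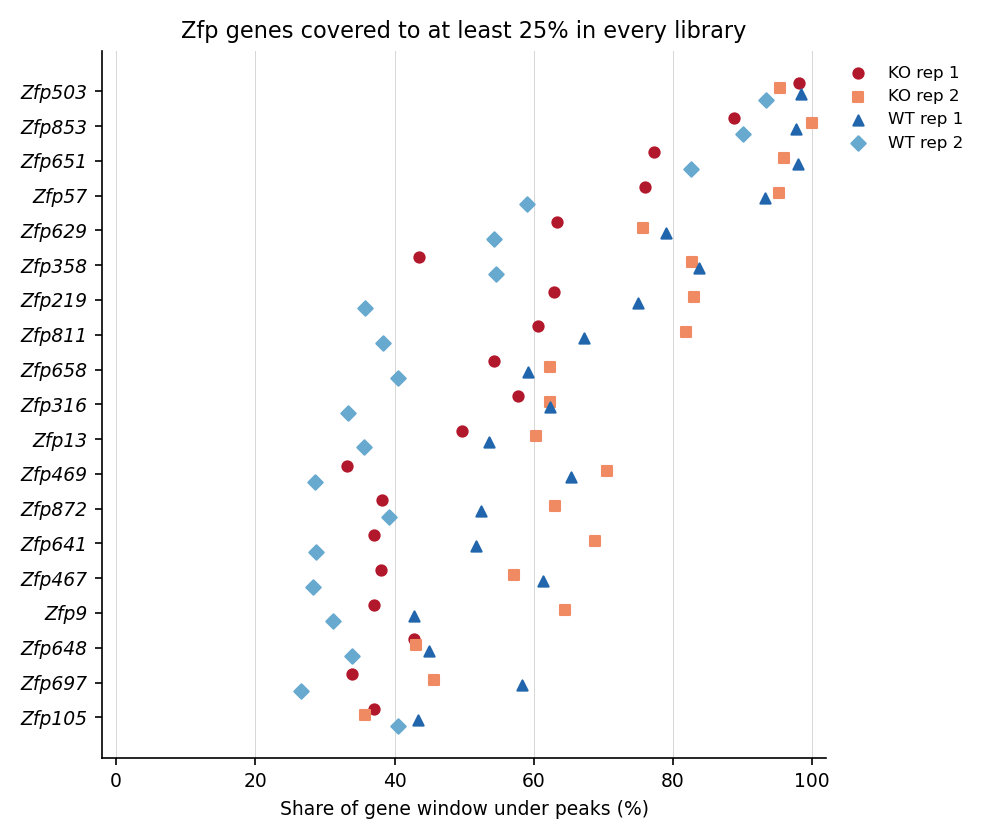
Share of the gene window under peaks (x axis, %) at the 19 Zfp genes covered to at least 25% in every library, 1 symbol per library, ordered by their mean. The share falls from 96.3% at Zfp503 to 39.1% at Zfp105, and the symbols of KO and WT interleave at most genes.

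Of 25 symbols listed for a known role, 24 were in the annotation as protein-coding genes, of which 2 were marked in every library, 4 in some and 18 in none. Zfp503 and Zfp57 were the 2 marked throughout. Zfp423, a partner of the B-lineage factor Ebf1 and a regulator of fat and brain development, was covered to 18.1% and 31.4% in KO mice, against 31.4% and 12.6% in WT mice. Its gene is long, and the 4000 bp around its start were covered to 90.4% and 100% in KO mice, against 90.9% and 85.2% in WT mice, so the start was nearly filled in every mouse.

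Zfp536, a neural repressor with a very long gene body, differed in the same way between measures. Its whole window had 1.07% and 1.72% in KO mice, against 1.74% and 0.550% in WT mice, but its start had 33.8% and 98.4% in KO mice, against 87.5% and 0% in WT mice. The start values lay far apart within each genotype, and those of WT spanned most of the scale. Zfp366, a factor of dendritic cells, had 38.8% and 54.2% in KO mice, against 51.4% and 18.9% in WT mice.

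Zfp318, which mature B cells need to express IgD, was covered to 20.4% and 38.3% in KO mice, against 27.3% and 6.97% in WT mice. Around its start the shares were 67.4% and 53.5% in KO mice, against 73.3% and 32.9% in WT mice, so each library carried the mark there. Zfp703, a co-repressor related to Zfp503, had 30.4% and 21.8% in KO mice, against 8.88% and 7.59% in WT mice, and these values did not overlap.

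Other regulators lacked broad coverage. Zfp148, Zfp217, the pluripotency marker gene Zfp42, the oligodendrocyte factor gene Zfp488 and the epidermal factor gene Zfp750 had 0% in all 4 libraries. The transcription factor gene Zfp143 had 3.08% in KO replicate 2 and 0% elsewhere. Zfp36 had 0% and 9.95% in KO mice, against 3.65% and 0% in WT mice. Of KRAB genes with known targets, Zfp445, which acts with Zfp57 at imprinted loci, had 11.6% and 16.9% in KO mice, against 12.5% and 10.1% in WT mice. Zfp568, a repressor of Igf2, had 2.15% in WT replicate 1 and 0% elsewhere, and Zfp809, which silences retroviral DNA, had 2.41% in KO replicate 2 and 0% elsewhere. Apart from Zfp445, these genes had coverage in at most 2 libraries.

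Clustered members were covered less than isolated ones. Clustered genes averaged 5.54% and 9.09% in KO mice, against 7.22% and 3.72% in WT mice. Isolated genes averaged 8.15% and 13.3% in KO mice, against 11.3% and 6.09% in WT mice. The difference was -2.62 and -4.20 points in KO mice, against -4.09 and -2.37 points in WT mice, negative in 4 of 4 libraries, with a mean of -3.32 ± 0.958 points (SD over libraries, n = 4, no test made). Coverage of any size was found at 78 and 109 of 212 clustered genes in KO and 104 and 75 in WT, and at 85 and 95 of 155 isolated genes in KO and 88 and 72 in WT. The median difference over the libraries averaged -1.32 points. A protein-coding gene outside the family overlapped the window at 23 clustered and 41 isolated members. Among the rest, 189 clustered genes averaged 5.08% and 8.63% in KO mice, against 6.68% and 3.50% in WT mice. The 114 isolated ones averaged 7.52% and 11.4% in KO mice, against 10.8% and 5.93% in WT mice, higher in each library.

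The difference was not present at all gene lengths. Bodies had a median of 15819 bp in clustered and 20178 bp in isolated genes. Among members of 2286 to 13837 bp, the 78 clustered genes lay -8.81 ± 1.115 points from the 45 isolated ones. Between 13941 and 25031 bp, 78 clustered genes lay 1.20 ± 0.225 points above 44 isolated ones, higher in 4 of 4 libraries. From 25266 bp up, 56 clustered genes lay -4.37 ± 2.07 points from 66 isolated ones (SD over libraries, n = 4, for all 3 bands). With the window fixed at 4000 bp around the gene start, in the 305 members whose strand was known, the difference was -7.82 ± 1.33 points.

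Coverage was on average lowest in clusters of 6 or more members. The 212 clustered genes formed 52 clusters, of which 23 were pairs, 19 held 3 to 5 genes and 10 held 6 or more. Genes in pairs averaged 6.45% and 12.2% in KO mice, against 8.89% and 4.26% in WT mice. Those in clusters of 3 to 5 averaged 7.14% and 10.2% in KO mice, against 8.96% and 5.24% in WT mice, and the 95 genes in clusters of 6 or more averaged 3.89% and 6.77% in KO mice, against 5.11% and 2.32% in WT mice. Clusters of 6 or more were thus lowest on average in every library, while the order of the other 2 differed between libraries. These 10 clusters were not alike, with means over the libraries from 0.127% in 9 genes on chromosome 4 to 15.5% in 6 genes on chromosome 7. In the latter (chr7:4915181-5053723), 3 genes were marked in some library. In 35 of the 52 clusters no member was marked in any library, and 6 clusters had no peak at all.

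The cluster with most members, 15 genes over 401 kb of chromosome 7 (chr7:29768552-30169775), had a single marked gene. Zfp30 was covered to 31.1% and 42.1% in KO mice, against 24.1% and 23.9% in WT mice, so the KO libraries were the higher pair. Of its 14 neighbours in the cluster, 8 were without a peak throughout and the others reached at most 9.93%. Zfp568 belongs to this cluster.

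**Figure D3:**
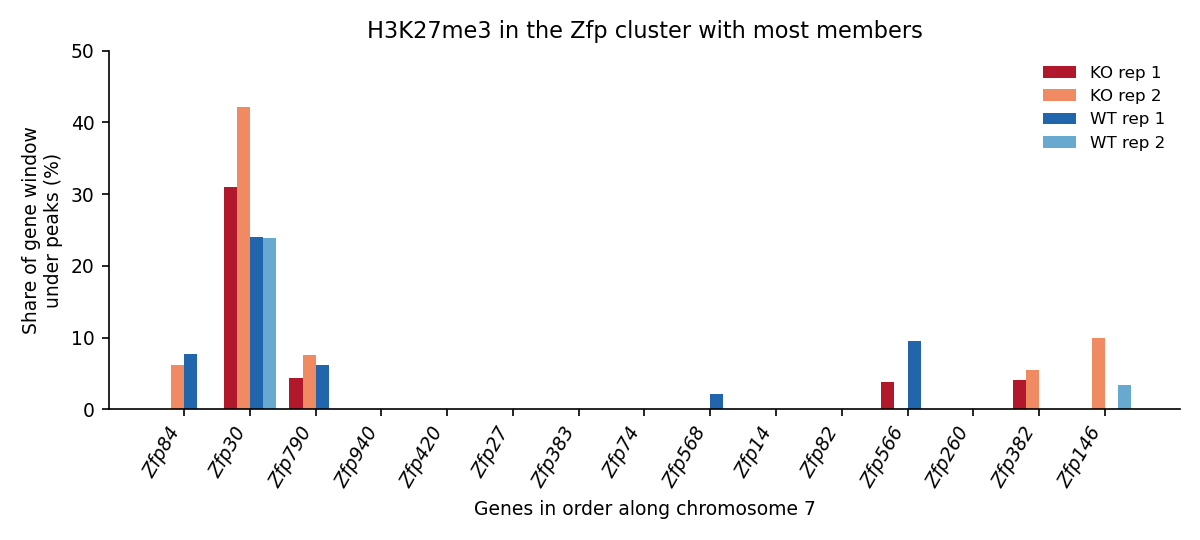
Share of the gene window under peaks (y axis, %) in the 15 members of the chromosome 7 cluster, in their order along the chromosome, with 1 bar per library. Zfp30 stands alone at 23.9% to 42.1%, and every other bar is at or below 9.93%.

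The next clusters by number were also little covered. The 14 genes on chromosome 13 (chr13:67038594-67553152) averaged 1.52% and 1.52% in KO mice, against 3.23% and 0.901% in WT mice, with Zfp759 highest and Zfp712 among those at 0. The 13 genes on chromosome 17 (chr17:21383707-21994366) averaged 1.56% and 4.03% in KO mice, against 3.19% and 0.774% in WT mice, with Zfp54 highest at a mean of 9.55%. Neither held a marked gene. The 9 genes at the end of chromosome 4 (chr4:147124882-147849126) had the least of the clusters of 6 or more, with 0.0897% and 0.0659% in KO mice, against 0.274% and 0.0794% in WT mice. Members of these clusters include close copies, and how reads that match several copies were treated is not stated in the labels, so its part in the low coverage was not tested.

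Some clusters held a single marked gene beside unmarked ones, and a few were covered more widely. On chromosome 17, Zfp811 averaged 62.0% over the libraries among 8 members (chr17:32765496-33110707), while none of its 7 neighbours was marked. Of these 8 members, 5 had coverage in some library. The 3 genes Zfp12, Zfp316 and Zfp853 on chromosome 5 (chr5:143235138-143293982) averaged 52.8% and 56.2% in KO mice, against 55.3% and 41.1% in WT mice, although Zfp12 alone had 12.0% and 6.13% in KO mice, against 5.80% and 0% in WT mice. Single peaks rarely joined members, since 6 and 7 peaks in KO and 6 and 1 in WT touched more than 1 window, out of 480 and 599 peaks on members in KO and 512 and 449 in WT.

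Members close to the 100 kb limit had low and middling coverage on both sides of it. Just inside it, Zfp263, Zfp972, Zfp605 and Zfp932, with a nearest member at 96.4 to 97.8 kb, had mean coverage of 13.1%, 0%, 0% and 1.67%. Just outside, Zfp936, Zfp715, Zfp653 and Zfp781, at 104 to 118 kb, had 0%, 2.38%, 16.1% and 0%.

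Within members the mark was highest at the gene start. In the 305 members with a known strand, the 4000 bp around the start were covered to 14.7% and 22.7% in KO mice, against 18.7% and 10.1% in WT mice. Around the 3′ end the values were 4.55% and 6.94% in KO mice, against 5.48% and 3.41% in WT mice. The start exceeded the 3′ end by 11.4 ± 3.92 points over the 4 libraries (SD), and by 12.7 ± 2.03 points in 17187 other genes. In the 4000 bp around the start, other genes had 22.3% and 30.6% in KO mice, against 27.4% and 17.0% in WT mice. Members lay -7.79 ± 0.737 points from them (SD over libraries, n = 4), lower in 4 of 4 libraries. The gap was narrower in the first 500 bp of the gene. There members had a mean share of 22.8% and 36.4% in KO mice, against 30.9% and 14.5% in WT mice. Other genes had 26.7% and 37.5% in KO mice, against 33.0% and 20.01% in WT mice. In the bin centred 2250 bp downstream, members had fallen to 8.48% and 13.7% in KO mice, against 10.9% and 6.22% in WT mice. Other genes had 18.8% and 24.5% in KO mice, against 22.2% and 14.7% in WT mice. The values for members were lower at both distances in every library, with the wider gap downstream.

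**Figure D4:**
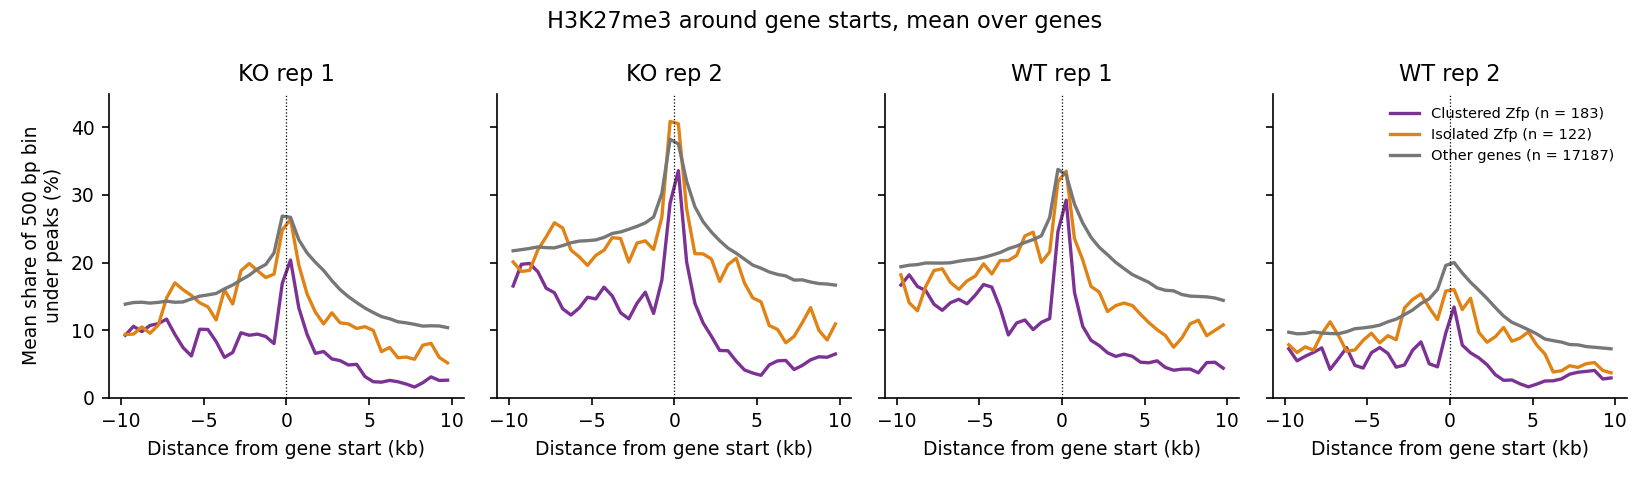
Mean share of 500 bp bins under peaks (y axis, %) by distance from the gene start (x axis, kb, downstream to the right) for 183 clustered Zfp genes, 122 isolated Zfp genes and 17187 other genes, 1 panel per library. Zfp genes peak at the start like other genes, and their lines lie lower from 2 kb downstream onward.

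Around the start, clustered members averaged 11.6% and 19.1% in KO mice, against 15.2% and 7.66% in WT mice, and isolated members 19.2% and 27.98% in KO mice, against 23.997% and 13.7% in WT mice. The first 500 bp of clustered genes had 20.4% and 33.6% in KO mice, against 29.2% and 13.4% in WT mice, and those of isolated genes 26.4% and 40.5% in KO mice, against 33.5% and 16.0% in WT mice. Peaks on members were about as wide as others, with median widths of 1069 and 1458 bp in KO mice, against 1418 and 873 bp in WT mice, beside 1140 and 1558 bp in KO mice, against 1513 and 861 bp in WT mice elsewhere.

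Coverage at the start also went with CpG content. Of the 305 promoters, 162 had a CpG count of at least 0.6 times that expected from their C and G content. Starts of these CpG-rich members were covered to 18.1% and 27.4% in KO mice, against 23.1% and 12.7% in WT mice. The 143 CpG-poor ones had 10.7% and 17.3% in KO mice, against 13.7% and 7.08% in WT mice. The difference was positive in 4 of 4 libraries, from 5.64 to 10.2 points. Other genes showed the same order, with 25.9% and 34.8% in KO mice, against 30.3% and 19.7% in WT mice for CpG-rich starts and 18.95% and 26.7% in KO mice, against 24.6% and 14.4% in WT mice for CpG-poor ones. Across the 305 members the ratio of observed to expected CpG and the mean coverage of the start had a Spearman correlation of 0.20, a weak relation between genes that share libraries. Isolated members had a median ratio of 0.69 and clustered members 0.60.

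No Zfp gene passed the test between genotypes. Of 14649 genes with coverage in any library, limma across all genes called 0 higher and 0 lower in KO at a threshold of 0.05 on the adjusted p (0% in each direction), and the 250 members among them all had an adjusted p of 1. At an unadjusted p under 0.05, 206 genes (1.41%) were higher and 28 (0.191%) lower in KO, among them 5 and 1 members. The mean over all 367 members was 8.75% ± 2.99 in KO and 6.83% ± 2.99 in WT (SD, n = 2 each), and that of other genes 16.0% ± 4.68 in KO and 13.3% ± 5.31 in WT. The difference of 1.92 points over members turned to -0.19 points without KO replicate 2 or without WT replicate 2, and was 0.454 points with every list cut to the covered length of the shortest. That cut kept the peaks with the highest signal, and left 43140 and 16671 peaks in KO and 21193 and 82292 in WT. WT replicate 2 alone kept its whole list, weaker peaks included. At that length the median over the 184 members with coverage was -0.22 points. With 2 mice a genotype, an absence of calls is no evidence of equal marking.

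The highest and lowest values of single members mostly fell in the broadest and the shortest lists. Among 104 members covered in every library, the highest value was in KO replicate 2 at 61 and in WT replicate 1 at 34, and the lowest was in WT replicate 2 at 79. The KO pair lay wholly above the WT pair at 28 of the 250 members with coverage (11.2%), beside 13.1% of all genes tested, and below at 13 (5.20%), beside 2.34%. The median KO minus WT difference was 1.29 points in these members and 1.97 points in all genes tested. With every list cut to the covered length of the shortest, 184 members had coverage, of which 22 had KO above (12.0%, beside 11.7% of all genes) and 9 had KO below (4.89%, beside 8.83%). Of these, 8 and 2 had the pattern before.

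The members named here were chosen for values that do not overlap, so their direction is no finding. The largest difference with KO above was at Zfp819 on chromosome 7 (chr7:43607135-43618279), in a cluster of 3 with Zfp658. It was covered to 43.1% and 48.6% in KO mice, against 23.1% and 4.02% in WT mice (difference 32.3 points, SE 8.45, limma adjusted p = 1). At equal covered length the values were 43.1% and 34.0% in KO mice, against 16.8% and 4.02% in WT mice, so the KO libraries stayed higher. Its start, in contrast, was nearly filled in 3 mice, with 85.1% and 100% in KO and 81.8% in WT replicate 1 against 15.2% in WT replicate 2.

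Zfp386 and Zfp319 were covered in KO alone. Zfp386 (chr12:116047714-116063231) had 9.08% and 14.9% in KO and 0% in both WT libraries, and its start 44.3% and 52.9% in KO and 0% in both. Zfp319 (chr8:95326131-95331811) had 8.46% and 20.1% in KO and 0% in both WT libraries. At equal covered length KO replicate 2 fell to 0% at both genes. The limma adjusted p was 1 for both, with differences of 12.0 points (SE 2.80) and 14.3 points (SE 5.07).

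The other members with KO above were Zfp707, Zfp703, Zfp580, Zfp579, Zfp688, Zfp575 and Zfp30, with differences of 12.6 to 23.5 points and an adjusted p of 1 in limma. At Zfp707 a single mouse set the size, with 11.9% and 51.7% in KO mice, against 9.73% and 6.74% in WT mice. Zfp580 and Zfp579 lie in 1 cluster on chromosome 7, at 42.0% and 46.5% in KO mice, against 31.4% and 21.5% in WT mice for Zfp580, and at 27.6% and 29.3% in KO mice, against 23.0% and 0% in WT mice for Zfp579. Of these 7 genes, Zfp707, Zfp580, Zfp688 and Zfp30 held the pattern at equal covered length.

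Fewer members had both WT values above. Zfp414 (chr17:33629092-33631716) had 0% in both KO libraries and 13.4% and 9.55% in WT (difference -11.5 points, SE 2.11, limma adjusted p = 1). Zfp870, Zfp111 and Zfp839 had at most 5.36% in KO and 3.28% to 9.10% in WT. Zfp105 (chr9:122923039-122935260) was broadly marked in all mice, with 37.1% and 35.7% in KO mice, against 43.3% and 40.5% in WT mice. Of these 5 genes, Zfp105 alone held the pattern at equal covered length.

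**Figure D5:**
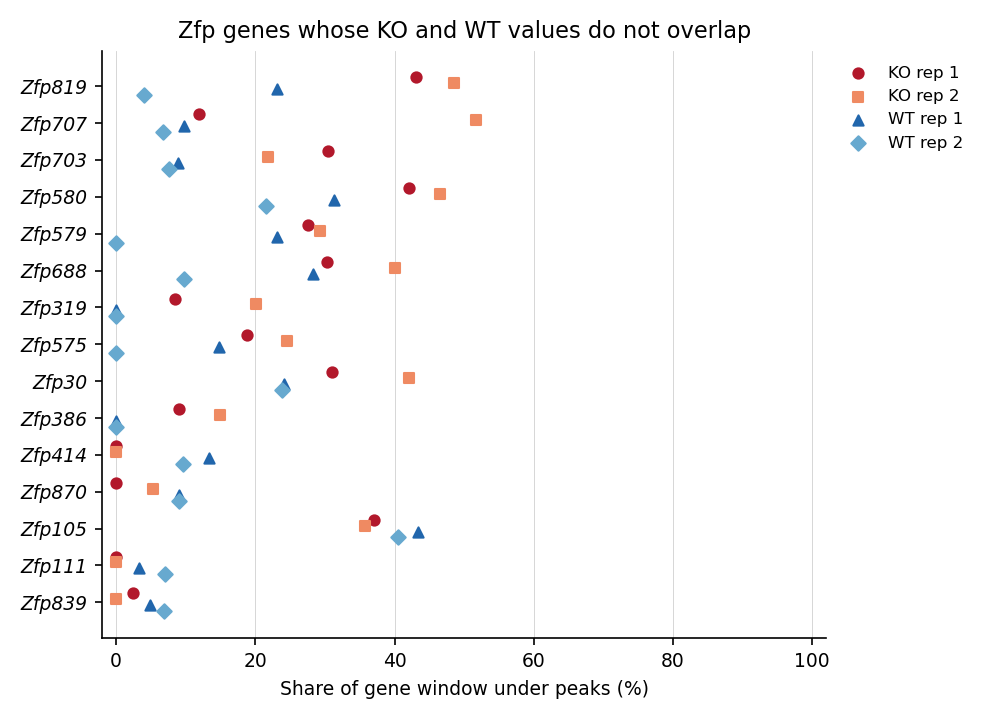
Share of the gene window under peaks (x axis, %) at 15 Zfp genes chosen because their KO and WT values do not overlap, the upper 10 with KO above and the lower 5 with KO below, 1 symbol per library. Within a genotype the symbols often lie far apart, as at Zfp707 with 11.9% and 51.7% in KO.

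Genes that work with KRAB zinc finger proteins were mostly not broadly marked. The 15 listed co-repressors and readers averaged 3.23% and 6.46% in KO mice, against 4.02% and 1.75% in WT mice, and 11 of them had coverage in some library. Of these 11, limma called 0 higher and 0 lower in KO. Trim28, the shared co-repressor, had 10.2% and 18.04% in KO mice, against 17.9% and 0% in WT mice, and Setdb1 had 3.22% in KO replicate 2 and 0% elsewhere. Only Dnmt3a, a DNA methyltransferase gene, was marked in any library, with 25.7% and 41.5% in KO mice, against 30.6% and 17.4% in WT mice. Zinc finger genes under other names were covered to 10.2% and 16.1% in KO mice, against 12.2% and 5.23% in WT mice for 40 Zbtb genes and to 4.60% and 9.66% in KO mice, against 9.09% and 3.84% in WT mice for 16 Zscan genes. The 11 Zkscan genes had 11.2% and 13.05% in KO mice, against 14.3% and 6.78% in WT mice.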

How the data were processed

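H3K27me3 was mapped in 4 libraries, 2 KO and 2 WT. Per the submitters' processing notes, the tools were SEACR, deepTools, SAMtools 1.11, Bowtie2 2.4.2 and Trim Galore 0.6.6, with mm10 as build; their roles, settings and any peak-calling control are not stated there. The authors deposited a peak list per library, with total and highest signal per peak on an unknown scale, so signal only ranked peaks within a list. The depth in reads is unknown and intervals for counting error cannot be had; precision rests on the spread between 2 mice a genotype.

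Covered shares were computed with Python 3.11.15 for RefSeq GRCm38.p6 genes. KO and WT were compared by limma 3.58.1 (R 4.3.3) over all genes with coverage, with Benjamini-Hochberg adjustment at 0.05; the scripts were tested on simulated data. Strand came from the RefSeq promoter table, which matched 305 of 367 members. Named members were the 10 with highest mean coverage, 10 with KO above and 5 with KO below by size of difference, members of the 3 clusters with most genes, and a list with known roles. Alternatives were other flanks, the gene start, stronger peaks, equal covered length, other cluster gaps, other limits for marked genes, a covariate, other filters and leaving out each library. Planned classes by finger number and KRAB domain could not be made, as no protein sequences were used here. Members and lists were chosen with earlier results of these data known. Of the listed germinal center B cell markers, 1 is not reported here.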

Additional observations from a re-analysis of the deposited data

How the results depend on the processing

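The lower coverage of clustered than isolated members held its sign under every alternative run, from -7.82 points around the gene start to -1.32 points as a median (by gene length, the middle band alone was positive), as did that of members against other genes, whose median difference was -0.10 points. Around the gene start 36 members were marked in every library, with only the stronger peaks of each list 12, at a limit of 10% 44 and at 50% 5. No member was called by limma under any alternative, while 2 genes outside the family were higher in KO without flanks and 2 with no filter. Members with both KO values below numbered 8 of 232 with coverage without flanks, 7 of 185 around the gene start and 6 of 191 with only the stronger peaks. The share over all genes was not computed under these settings, so the counts are no result about members. At a CpG ratio limit of 0.8 CpG-rich members exceeded the others by 4.91 points, against 8.17 at 0.6.

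The mean KO minus WT difference over members was 4.28 points around the gene start and 0.454 points at equal covered length. Without 1 library it ranged from -0.19 to 4.04 points, negative without KO replicate 2 and without WT replicate 2. Counts with KO above ranged from 33 to 144 and with KO below from 13 to 72, and members marked in every library from 19 to 27; with 1 library on a side these counts are easier to reach. The shares over all genes were not computed without 1 library, so the counts with KO above or below are no result about members. Over all genes tested the mean KO minus WT difference was also negative without KO replicate 2 (-0.883 points) and without WT replicate 2 (-1.53 points). It was 9.20 points without KO replicate 1 and 9.95 points without WT replicate 1. Without 1 library, clustered minus isolated ranged from -3.63 to -3.02 points, members minus other genes from -7.53 to -6.31, and CpG-rich minus CpG-poor from 7.50 to 9.01. The difference at each of the 15 named members kept its sign in 172 of 172 fits with a value. These members were chosen for values that do not overlap, so leaving out 1 library or changing the filter could not reverse it. The count is therefore no support for their direction. The alternatives by CpG ratio and without chromosome 7 were added after the data were seen. No paired analysis was possible because the labels number no replicates: the numbers used here follow the order of the records and pair no mice.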
